A study of Mus musculus with 20 samples.

Results

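The collagens and the genes that build, crosslink and degrade the extracellular matrix were examined in liver RNA of 20 female C57BL/6J mice. Genes were taken by symbol from the table of raw counts: every collagen chain, every matrix metalloproteinase (Mmp), every tissue inhibitor of metalloproteinases (Timp), the lysyl oxidases Lox and Loxl1 to Loxl4, and 9 further genes, which are Acta2, Dcn, Lum, Sparc, Des, Pdgfrb, Tgfb1, Fn1 and Vim. Of 55487 genes in the table, 85 matched by symbol and 70 had at least 20 counts summed over the 20 libraries. Just inside this limit was Mmp21 with 20 counts, and just outside it was Col6a4 with 19. Of the 15 genes left out, the collagens Col10a1, Col2a1, Col9a1 and Col11a1 had between 0 and 5 counts in all.

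All mice were 28 weeks old at sampling, and RNA was made from whole liver with 1 library per mouse. The 5 chow-fed mice received chow throughout. The other 15 mice received a high-fat diet (HFD) from 8 weeks of age and then, for 10 weeks, isocaloric HFDs in which 50% of the protein came from fishmeal made of salmon by-products, from salmon filet or from beef. The labels put 5 mice in the fishmeal group, 6 in the salmon filet group and 4 in the beef group. Mouse 31 is labelled salmon filet while the count table's header names it beef. Results follow the label. Values with mouse 31 as beef are given for the calls in beef versus chow, for Loxl4 and for estimates that changed sign. No group analysed here received the HFD without 1 of these protein sources, so HFD and added protein cannot be told apart in comparisons with chow.

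The matrix of the liver is a thin layer of collagen, fibronectin and proteoglycans in the space between hepatocytes and the sinusoids, with denser fibres in the portal tracts. Most of the fibrous collagens are made by stellate cells and portal fibroblasts, the network collagens of basement membranes also by endothelium, and fibronectin largely by hepatocytes. In fibrosis, stellate cells turn into myofibroblasts that express Acta2 and secrete type I and type III collagen, lysyl oxidases crosslink the fibres, and the balance between Mmps and Timps sets how fast matrix is degraded.

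The share of matrix genes that passed after the HFDs depended on the tool. Between 15 HFD-fed and 5 chow-fed mice, edgeR passed 3 of the 63 members with enough counts to be tested, against 9.75% of all genes tested. DESeq2, the tool of the study, passed 7 of 64 members (10.9%), against 11.7% of all genes. By edgeR, the transmembrane collagen Col25a1 was 2.44-fold lower, the gelatinase Mmp9 was 1.91-fold lower and fibronectin (Fn1) was 1.34-fold higher. The fibrillar collagens Col1a1, Col1a2 and Col3a1, the myofibroblast gene Acta2 and the inhibitor Timp1 did not pass by edgeR. Between any pair of protein sources no member passed by edgeR, where 0 to 0.157% of all genes did.

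The sequences below belong to members on which these results turn. Col1a1, the alpha 1 chain of type I collagen, was also measured by RT-qPCR in the study, and its primers are shown because they give the stretch of the transcript that such a measurement reads. By RT-qPCR the study reported essentially no difference in Col1a1 between its diet groups. Both primers lie in coding sequence on the plus strand of chromosome 11 (GRCm38). The forward primer is in exon 1 at chr11:94936423-94936443 and the reverse primer, written as ordered, pairs with exon 2 at chr11:94937956-94937975, so the product of 88 bases spans the first intron of a transcript of 5930 bases and 51 exons. Both are printed in lower case as no base in them is set apart, and the sequencing counts below cover the whole gene.
Col1a1 forward primer: ctgacgcatggccaagaagac
Col1a1 reverse primer: cctcgggtttccacgtctca

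For 51 of the 70 members RefSeq (GRCm38.p6) gave the sequence before a transcription start, in 56 promoters. The 250 bases before the start are printed for Col25a1, the member with the smallest adjusted p, for Mmp12, the member with the largest positive fold change, and for Col3a1, which followed Col1a1 from mouse to mouse. Capitals mark each match, on either strand, to 4 short motifs that were searched for by their letters. They are TATAAA of the TATA box, CCAAT of the CCAAT box, GGGCGG of the GC box and TGANTCA of AP-1 sites, and they do not overlap in these windows. The Col25a1 window is chr3:130180595-130180844 on the plus strand, before a start that lies inside the longer span of the gene in GENCODE. Its matches are CCAAT 191 bases before the start, and GGGCGG 114 bases before it on the other strand and 40 bases before it. The Mmp12 window is chr9:7347124-7347373 on the plus strand, before a start that also lies inside the gene's GENCODE span, with TGANTCA 44 bases before the start. The Col3a1 window is chr1:45311288-45311537 on the plus strand, with TATAAA 117 bases before the start.
Col25a1: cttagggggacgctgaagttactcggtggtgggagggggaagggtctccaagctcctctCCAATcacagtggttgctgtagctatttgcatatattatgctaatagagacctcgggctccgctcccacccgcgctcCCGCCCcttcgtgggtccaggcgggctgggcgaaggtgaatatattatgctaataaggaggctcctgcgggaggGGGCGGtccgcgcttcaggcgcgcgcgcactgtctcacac
Mmp12: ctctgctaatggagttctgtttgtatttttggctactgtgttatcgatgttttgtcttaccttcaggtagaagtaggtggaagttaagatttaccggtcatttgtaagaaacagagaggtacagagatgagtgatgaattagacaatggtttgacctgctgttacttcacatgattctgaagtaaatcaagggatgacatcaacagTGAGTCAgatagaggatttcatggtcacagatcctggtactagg
Col3a1: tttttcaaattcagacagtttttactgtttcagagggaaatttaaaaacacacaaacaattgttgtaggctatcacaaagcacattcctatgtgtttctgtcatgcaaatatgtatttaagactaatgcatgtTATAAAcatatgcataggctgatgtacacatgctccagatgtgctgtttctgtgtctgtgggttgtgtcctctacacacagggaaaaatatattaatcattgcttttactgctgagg

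Matches to these motifs were common in the whole set of 32851 RefSeq promoters of the same length. TATAAA occurred in 12.4% of them, CCAAT in 33.8%, GGGCGG in 32.7% and TGANTCA in 6.75%. Among the 56 promoters of members, TATAAA occurred in 9, CCAAT in 17, GGGCGG in 30 and TGANTCA in 5. A match is a string of letters and no measurement of binding.

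Several members lie side by side in the genome. Col4a1 and Col4a2, which encode the chains of the common basement membrane collagen, start head to head on chromosome 8 and overlap by 22 bases. Col4a4 and Col4a3 lie head to head on chromosome 1 with 71 bases between them, and Col4a6 and Col4a5 on the X chromosome with 1308 bases between them. Col3a1 and Col5a2 on chromosome 1 are 24614 bases apart, and Mmp13, Mmp12, Mmp3, Mmp8, Mmp27 and Mmp7 form a row on chromosome 9. Some members resemble or overlap other genes, and the setting for such reads is not known: 11 of 70 share at least 200 bases at 95% identity or more with another gene, among them Loxl2, Timp3, Mmp19, Mmp28, Col6a5, Col6a6 and Des, and their counts are less certain.

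The libraries held between 42526234 and 70266136 counts on genes. In 19 libraries 93.2% to 95.6% of counts fell on protein-coding genes, and in beef mouse 35 84.3% did. Libraries also differed in how counts changed with the GC content of genes. This slope was -0.41 on the log2 scale per 10% of GC in chow mouse 1, -0.35 in beef mouse 32, -0.28 in fishmeal mouse 16 and 0.35 in beef mouse 35, and between -0.17 and 0.19 in the others. These 4 mice are named below where a value rests on them.

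The level of members in liver was read from the deposited TPM values, which are per gene length and can be compared between genes. Fn1, which links cells to collagen, had the highest level with 653 ± 130 TPM (mean ± SD, n = 20 mice), followed by Col18a1, the basement membrane collagen that releases endostatin, with 365 ± 97.5 TPM. Together they made up 70.7% of the summed level of all members. Mmp19, a secreted metalloproteinase, had 87.2 ± 11.3 TPM and decorin (Dcn), a proteoglycan that binds collagen fibres, 85.3 ± 17.0 TPM, and this pair did not differ beyond their spread. Sparc, a collagen-binding glycoprotein, had 42.1 ± 6.64 TPM. Col14a1, a collagen found on the surface of fibres, had 24.1 ± 4.01 TPM and the membrane-anchored Mmp14 22.3 ± 4.33 TPM, which is again within their spread.

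The fibrillar collagens stood far lower in these livers. Col3a1 had 8.21 TPM, Col1a2 2.49 ± 0.817 TPM and Col1a1 2.46 ± 1.08 TPM, next to Acta2 with 2.44 ± 0.922 TPM and desmin (Des), the intermediate filament protein of stellate cells, with 2.22 ± 0.529 TPM. These 4 genes around 2 TPM did not differ from each other beyond their spread. Timp1 had 0.908 ± 0.528 TPM. In all, 38 members had a mean of at least 1 TPM, 9 of at least 10 TPM and 2 of at least 100 TPM, while 32 stayed below 1 TPM and 10 of these below 0.1 TPM. Col25a1 with 0.0754 TPM and Mmp9 with 0.225 TPM were among the low ones.

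**Figure D1:**
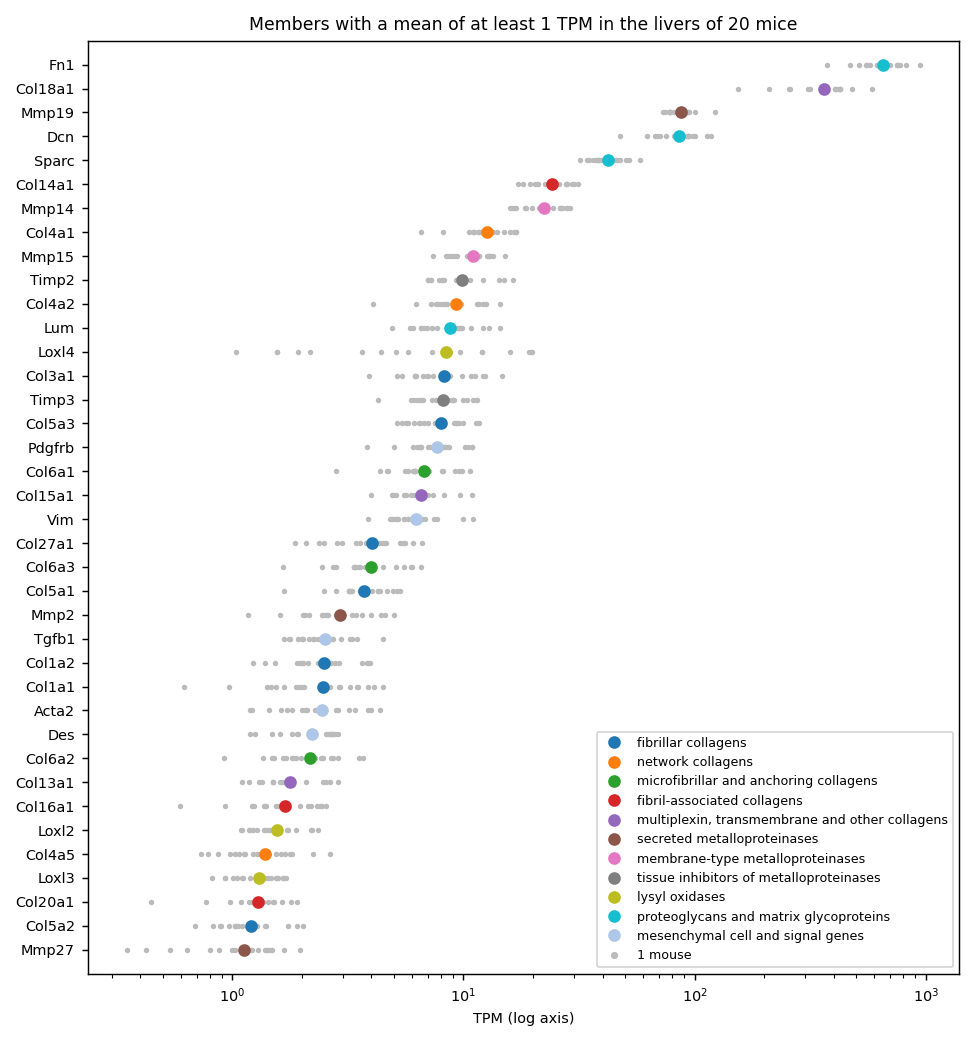
Level of the 38 members with a mean of at least 1 TPM, 1 point for each of the 20 mice, on a log axis in TPM. Fn1 and Col18a1 stand above 100 TPM in every mouse, and Col1a1, Col1a2 and Acta2 lie between 0.616 and 4.49 TPM.

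Chains that form 1 collagen were present in different proportions. Type I collagen is built from a pair of alpha 1 chains and 1 alpha 2 chain, and the ratio of Col1a1 to Col1a2 in TPM was 0.954 ± 0.207 (SD, n = 20), ranging from 0.504 to 1.46. The ratio of Col4a1 to Col4a2 was 1.38 ± 0.0983 with the smallest SD relative to its mean. Col5a1 over Col5a2 was 3.14 ± 0.630 and Col6a1 over Col6a2 3.15 ± 0.338. Col3a1 and Col1a1 belong to different collagens, type III and type I, and their ratio was 3.64 ± 0.955.

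For HFD versus chow, the question was whether the matrix genes differ after the 3 HFDs as a whole. Of the 70 members, 63 had enough counts to be tested, and Col17a1, Col22a1, Col28a1, Mmp3, Mmp8, Mmp21 and Mmp25 had not. By edgeR's quasi-likelihood test with Benjamini-Hochberg adjustment over all 17120 genes tested, 3 of 63 members were called at an adjusted p under 0.05, 1 higher and 2 lower, while 9.75% of all genes were called. The share of members called by this test, 4.76%, rests on 3 genes. It came nearer that of all genes by DESeq2 and with the GC offsets described below. At an unadjusted p under 0.05, 10 of 63 members passed, 8 higher and 2 lower, against 24.4% of all genes. DESeq2, the tool of the study, called 7 of 64 members (10.9%), against 11.7% of all genes. Adding offsets for the GC slope of each library, an alternative chosen after the data were seen, gave 7 of 63 members (11.1%), against 13.8% of all genes. The median log2 fold change of the tested members was 0.19, with 39 of 63 (61.9%) above 0, against 0.005 and 50.9% for all genes tested. With 1 mouse left out, the median of the members ran from 0.037 to 0.28. In whole liver, more cells of a type and more RNA per cell cannot be told apart.

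**Figure D2:**
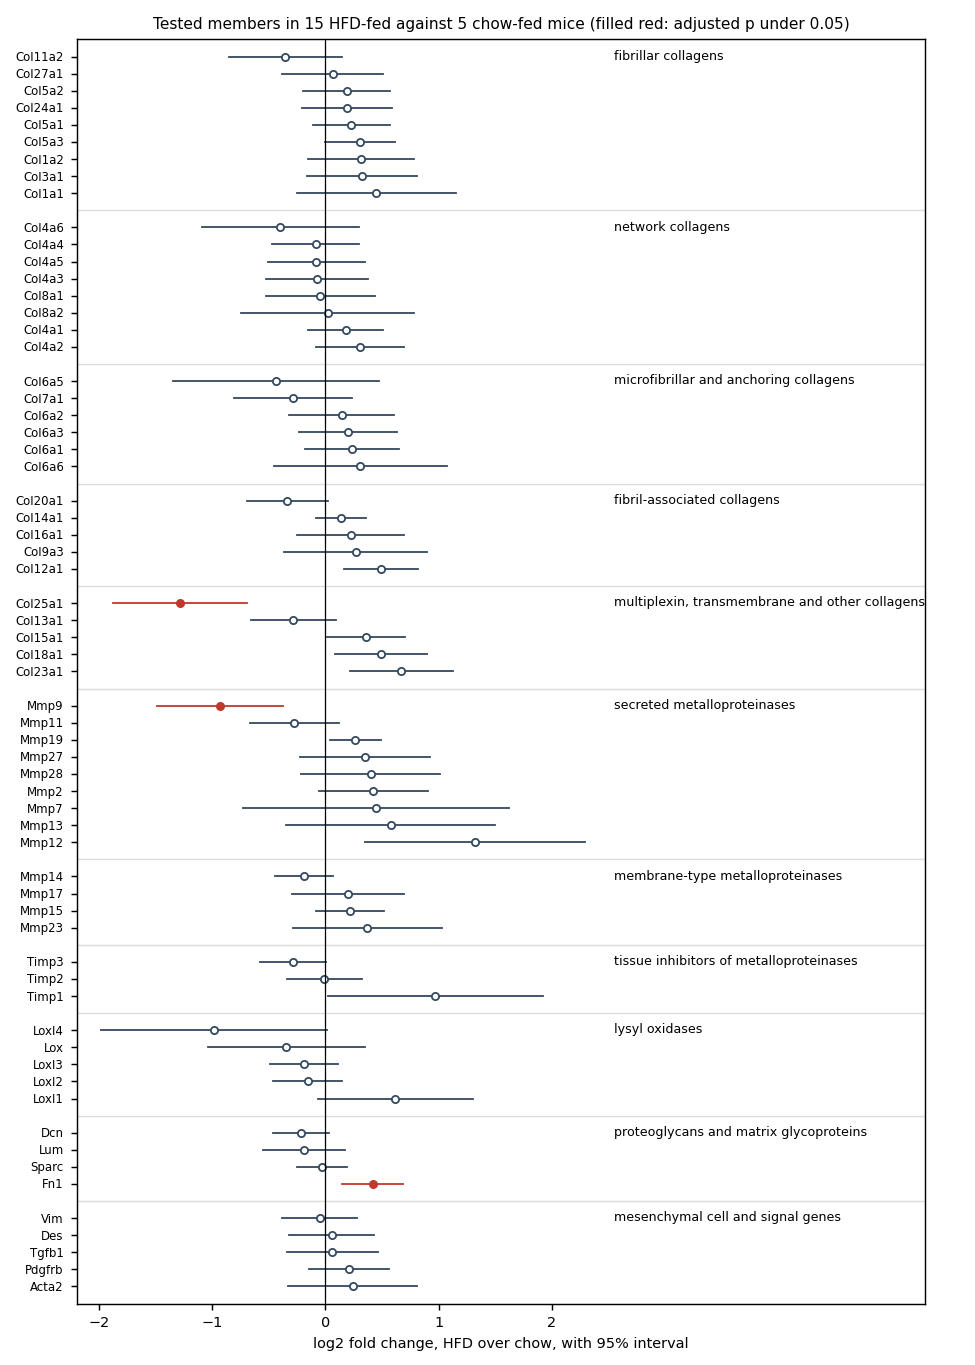
The log2 fold change of each tested member, 15 HFD-fed over 5 chow-fed mice, with its 95% interval, grouped by class. The 3 filled red points are Col25a1 and Mmp9 on the lower side and Fn1 on the higher side, and most other intervals include 0.

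Col25a1 encodes a collagen with a transmembrane segment, best known from neurons and the muscle they reach. In the chow-fed mice it stood at 0.717, 0.950, 0.505, 0.763 and 0.542 CPM, which are counts scaled to library size with TMM factors. In the 15 HFD-fed mice the lowest value was 0.134 CPM, the median 0.220 and the highest 0.825. All HFD-fed mice but 1 lay below the lowest chow-fed mouse, and the exception was salmon filet mouse 23. The log2 fold change was -1.29 (SE 0.286, 95% interval -1.88 to -0.70), with an adjusted p of 0.0057 by edgeR's quasi-likelihood test. The call was made in each of 20 fits that left out 1 mouse, with adjusted p from 0.000105 to 0.0314. These are few reads: the raw counts were 29 to 58 per library in chow-fed mice and 8 to 47 in HFD-fed mice. The gene's span also holds Gm9397, Gm22682, Gm43210, Gm43211 and Gm42837 on the same strand.

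Mmp9 encodes a gelatinase that degrades denatured and network collagen and is carried by neutrophils and macrophages. Its CPM was 0.488, 0.360, 0.435, 0.657 and 0.525 in the chow-fed mice. Among the HFD-fed mice the lowest value was 0.125, the median 0.245 and the highest 0.544. The groups overlapped, with 13 of 15 HFD-fed mice below the lowest chow-fed mouse, and fishmeal mouse 14 and salmon filet mouse 23 within the range of chow. Mmp9 had a log2 fold change of -0.93 (SE 0.268, 95% interval -1.49 to -0.38), with an adjusted p of 0.0293 by edgeR's quasi-likelihood test. It was called in 17 of 20 fits that left out 1 mouse and not without chow mouse 1, 7 or 10, where the adjusted p reached 0.108.

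Markers of T and B cells were lower beside Mmp9. Of 7 T and B cell markers, 5 were called lower (Cd79a, Ms4a1, Cd79b, Cd3d and Cd4), and the list's summed level was 4.96 to 10.3 CPM in chow-fed and 2.10 to 5.12 CPM in HFD-fed mice. The 9 neutrophil markers, a list that holds Mmp9 itself, summed to 1.52 to 3.05 CPM in chow-fed and 0.659 to 3.33 CPM in HFD-fed mice, and of the 3 that could be tested Mmp9 alone was called. None of the 10 Kupffer cell and macrophage markers was called, with a median log2 fold change of -0.13 and 1 of 10 above 0. The part of these cells in the level of Mmp9 was not tested.

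Fn1 was the 1 member called higher. Its CPM was 1765, 2178, 2924, 2431 and 2785 in the chow-fed mice. Under HFD it ranged from 2628 to 4616 with a median of 3224. The groups overlapped: 9 of 15 HFD-fed mice lay above the highest chow-fed mouse and none below the lowest. Fn1 had a log2 fold change of 0.42 (SE 0.131, 95% interval 0.15 to 0.69), with an adjusted p of 0.0442 by edgeR's quasi-likelihood test. This call lay near the threshold, since it was kept in 10 of 20 fits that left out 1 mouse, with adjusted p from 0.0304 to 0.174. Without chow mouse 1, which had the lowest Fn1 and the steepest negative GC slope, the call was lost, while with GC offsets the log2 fold change was 0.39 and the adjusted p 0.0339.

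Among the fibrillar collagens, the ropes of scar tissue, 0 of 9 members were called. The median log2 fold change was 0.23 and 8 of 9 were above 0. Col1a1 stood at 1.63, 9.75, 3.90, 4.98 and 5.04 CPM in the chow-fed mice. In the HFD-fed mice it ranged from 2.57 to 14.4 CPM with a median of 6.58. The groups overlapped widely, and chow mouse 2 exceeded all but 2 HFD-fed mice. For Col1a1 the log2 fold change was 0.45 (95% interval -0.25 to 1.15), with an adjusted p of 0.446 by edgeR's quasi-likelihood test. The interval therefore takes in both a small decrease and a rise of more than 2-fold. For Col1a2, the partner chain, it was 0.31 (-0.16 to 0.78), and for Col3a1, the type III collagen of young and elastic tissue, 0.32 (-0.17 to 0.81). Col5a1 and Col5a2, whose product sets the width of type I fibres, had log2 fold changes of 0.23 and 0.19, and Col5a3 0.30.

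The network collagens build basement membranes. None of 8 members was called, with a median log2 fold change of -0.06. Col4a1 had a log2 fold change of 0.18 (95% interval -0.15 to 0.51) and Col4a2 0.31 (-0.08 to 0.69), with the other 4 chains of type IV and the type VIII chain Col8a1 between -0.40 and -0.05 and Col8a2 at 0.02. None of the 6 tested microfibrillar and anchoring collagens was called. In that class the type VI chains, which form beaded filaments around cells, had log2 fold changes of 0.23 for Col6a1, 0.14 for Col6a2 and 0.20 for Col6a3.

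Fibril-associated collagens sit on the surface of fibres, and 0 of 5 tested members were called. Col12a1, which is bound to type I fibres in tendon and in healing tissue, came closest. Its CPM was 1.95, 2.77, 1.81, 2.23 and 2.94 in the chow-fed mice. In the HFD-fed mice the lowest value was 2.30, the median 2.99 and the highest 4.61. The groups overlapped, and the log2 fold change was 0.49 (SE 0.159) with an adjusted p of 0.0519 by edgeR's quasi-likelihood test and 0.0234 by DESeq2. Col14a1, the most abundant of this class, had a log2 fold change of 0.14 (95% interval -0.08 to 0.36).

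Of the 5 tested multiplexin, transmembrane and other collagens, Col25a1 alone was called. The multiplexins Col15a1 and Col18a1 lie in the basement membranes of vessels and sinusoids. Col18a1 stood at 436, 898, 1050, 676 and 845 CPM in the chow-fed mice. With HFD the lowest value was 597 CPM, the median 1133 and the highest 1918. The ranges overlapped, and both the low values of chow mouse 1 and fishmeal mouse 16 and the high value of beef mouse 35 belong to libraries with a steep GC slope. Col18a1 had a log2 fold change of 0.49 (95% interval 0.09 to 0.90), with an adjusted p of 0.119 by edgeR's quasi-likelihood test and of 0.0216 with GC offsets, where the log2 fold change was 0.36. Col15a1 had a log2 fold change of 0.36 (0.01 to 0.71). The transmembrane collagen Col23a1 had 0.67 (SE 0.220), with an adjusted p of 0.0557 by edgeR and 0.0386 by DESeq2.

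Secreted metalloproteinases cut collagens, elastin and other matrix proteins. Of 9 tested, Mmp9 alone was called, and the median log2 fold change was 0.40 with 7 of 9 above 0. Mmp12, the elastase of macrophages, had the largest positive change of all members. It stood at 0.305, 0.819, 0.226, 0.297 and 0.402 CPM in the chow-fed mice. Under HFD it ranged from 0.210 to 2.66 CPM with a median of 0.841. The groups overlapped, with 8 of 15 HFD-fed mice above the highest chow-fed mouse and salmon filet mouse 23 below the lowest. The difference was 2.50-fold (SE 0.470 on the log2 scale), with an adjusted p of 0.0773 by edgeR's quasi-likelihood test and 0.0200 by DESeq2. Trem2, a receptor of macrophages that take up lipid, was called higher (log2 fold change 1.44), while Cd9 and Fabp5 of the same list of 6 lipid-associated macrophage markers were called lower (-1.20 and -2.77), and the summed level of that list, which holds Mmp12 itself, was 106 to 258 CPM in chow-fed and 20.4 to 71.6 CPM in HFD-fed mice. Most of that sum was Fabp5, at 80.2 to 210.0 CPM in chow-fed and 4.86 to 50.2 CPM in HFD-fed mice, and the median log2 fold change of the 6 markers was 0.25, with 4 of 6 above 0. The part of macrophages in the level of Mmp12 was not tested.

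The other proteases changed less. Mmp19 had a log2 fold change of 0.26 (95% interval 0.04 to 0.49, adjusted p = 0.127 by edgeR), Mmp2, a gelatinase of stellate cells, 0.42 (-0.06 to 0.91), and Mmp13, the main interstitial collagenase of mice, 0.58 (SE 0.445). Of the 4 tested membrane-type metalloproteinases, which act at the cell surface, 0 were called. Mmp14, which activates Mmp2, had -0.19 (-0.45 to 0.07) and Mmp15 0.22 (-0.08 to 0.52).

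The Timps block metalloproteinases, and 0 of 3 were called. Timp1, which rises in injured liver, stood at 0.168, 0.295, 0.174, 0 and 0.280 CPM in the chow-fed mice, the 0 being chow mouse 7. In the HFD-fed mice the lowest value was 0.108, the median 0.340 and the highest 0.759. The groups overlapped, and the log2 fold change was 0.97 (95% interval 0.02 to 1.92) with an adjusted p of 0.195 by edgeR's quasi-likelihood test. The raw counts were 0 to 18 in chow-fed and 6 to 45 in HFD-fed mice. Timp2 had -0.01 (-0.34 to 0.32) and Timp3, which is held in the matrix, -0.29 (-0.57 to 0.00).

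Lysyl oxidases crosslink collagen and elastin. None of 5 was called, 4 of 5 had a log2 fold change under 0, and the median was -0.19. Loxl4 varied most, at 16.4, 30.3, 12.5, 18.9 and 32.0 CPM in chow-fed mice. In the HFD-fed mice the lowest value was 1.82, the median 8.49 and the highest 29.3. Thus 9 of 15 HFD-fed mice lay below the lowest chow-fed mouse and the rest within the range of chow. Its log2 fold change was -0.99 (95% interval -1.99 to 0.01), with an adjusted p of 0.213 by edgeR's quasi-likelihood test. Loxl1, which acts on elastic fibres, had 0.62 (-0.07 to 1.30), Loxl2 -0.16 and Lox -0.35.

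Of the remaining matrix proteins, Dcn had a log2 fold change of -0.21 (95% interval -0.46 to 0.04), lumican (Lum), a related proteoglycan, -0.19 and Sparc -0.03. None of the 5 genes of mesenchymal cells and their signals was called, with a median log2 fold change of 0.06 and 4 of 5 above 0. Acta2 had 0.24 (-0.33 to 0.81), Des 0.06, the stellate cell receptor Pdgfrb 0.21 (-0.15 to 0.56), Tgfb1, the main inducer of matrix genes, 0.06 and the filament protein Vim -0.05. For Vim the estimate was above 0 without chow mouse 2. None of 12 stellate cell markers was called, with a median log2 fold change of 0.06. Their summed level was 549 to 643 CPM in chow-fed and 467 to 685 CPM in HFD-fed mice. This list holds the members Dcn, Des and Pdgfrb themselves and is no separate measure of them. Dcn alone made up 199 to 240 CPM in chow-fed and 130 to 260 CPM in HFD-fed mice. Other cell types were read from their own marker lists. Of 9 tested markers of portal fibroblasts and mesothelium, Thy1 was called lower (log2 fold change -0.73), of 10 of liver endothelium Clec4g (-0.29) and of 7 of cholangiocytes Sox9 (-0.61). In these lists 1 of 9, 3 of 10 and 3 of 7 markers were above 0. Of the 5 tested smooth muscle markers, a list that holds Acta2 itself, 0 were called. None of 8 hepatocyte markers was called, and all 8 were present in these liver samples, with a sum of 97308 to 131201 CPM over all mice. Of the adipocyte list 1 gene could be tested and was not called, and of 2 tested exocrine pancreas markers Cela1 was called higher (0.77). The median of these 2 pancreas markers was 0.07, with 1 of 2 above 0. The part of these cells in the levels of members was not tested.

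**Figure D3:**
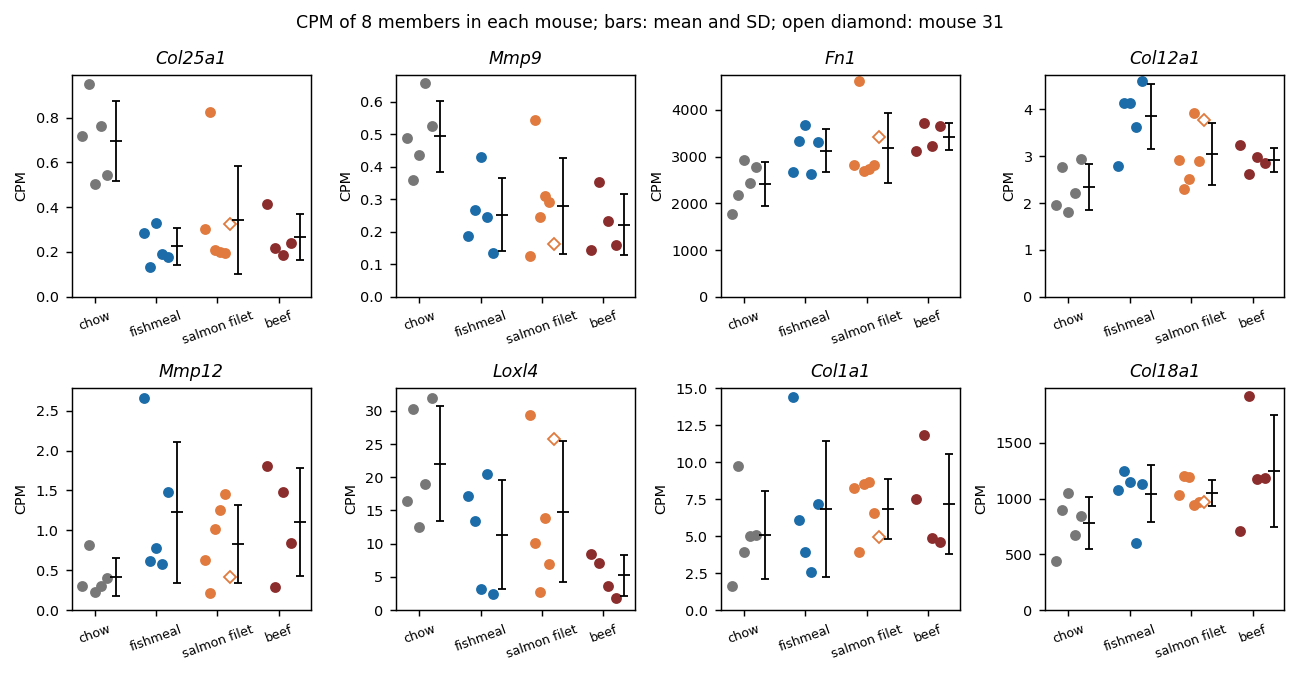
CPM of 8 members in each mouse by group, with the mean and SD beside the points and mouse 31 as an open diamond. The means of Col25a1 and Mmp9 are lower in all 3 HFD groups than in chow, with salmon filet mouse 23 the highest HFD-fed mouse for both, Loxl4 is lowest in beef with 1.82 to 8.49 CPM, and Col1a1 overlaps in all 4 groups.

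Other genes of the matrix pathway were described by lists taken with earlier results known. Of 22 tested genes that modify and process collagen, 1 was called lower, P4ha1, a prolyl hydroxylase subunit, with a log2 fold change of -0.53 (SE 0.113). Of 28 tested genes of the TGF-beta and PDGF pathways, 1 was called higher and 1 lower. Tgfbi, a matrix protein induced by TGF-beta, had a log2 fold change of 0.39 and the receptor Tgfbr2 had a log2 fold change of -0.53 (SE 0.0753) with no overlap, at 16.7 to 20.2 CPM in chow-fed and 11.1 to 15.5 CPM in HFD-fed mice. Of 34 tested other matrix proteins, Nid2, a basement membrane linker, was called lower (-0.50), and of 18 other matrix proteases and inhibitors Reck, a membrane-bound Mmp inhibitor, was called lower (-0.49). None of 10 tested collagen receptors was called. The median log2 fold change of each of these 5 lists lay between -0.07 and 0.09.

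Each HFD group was next compared with the same 5 chow-fed mice, so these comparisons share their controls and their results are given side by side. In fishmeal versus chow, 1 of 61 tested members was called by edgeR's quasi-likelihood test, against 3.38% of all genes, and 10 passed an unadjusted p under 0.05, against 16.9% of all genes. DESeq2 called 3 of 66, Col12a1, Mmp12 and Col25a1, against 6.35% of all genes. In salmon filet versus chow, edgeR called 0 of 61 members, against 4.46% of all genes, with 13 at an unadjusted p under 0.05, against 21.5%. DESeq2 called 0 of 64, against 8.54% of all genes, and limma on log2(TPM + 1) called 0 of 42, against 2.88%. In beef versus chow, edgeR called 2 of 62, against 2.48% of all genes, with 12 at an unadjusted p under 0.05, against 17.8%. DESeq2 called 4 of 62, Mmp9, Loxl4, Fn1 and Col25a1, against 6.63% of all genes. With mouse 31 counted as beef, edgeR called 2 of 61, Mmp9 and Col25a1, against 3.05% of all genes.

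Col25a1 was called lower in fishmeal and in beef. In the fishmeal group its CPM was 0.287, 0.134, 0.331, 0.192 and 0.180, all below the lowest chow-fed mouse at 0.505. The log2 fold change was -1.63 (SE 0.298) with an adjusted p of 0.0104 by edgeR, and the call was made in 10 of 10 fits that left out 1 mouse. In the salmon filet group, 5 of 6 mice lay between 0.195 and 0.326 CPM, below all chow-fed mice, and mouse 23 at 0.825 CPM lay among the chow-fed mice. There the log2 fold change was -1.01 (SE 0.362) with an adjusted p of 0.128 by edgeR, and without mouse 23 the call was made. In the beef group the values were 0.416, 0.220, 0.186 and 0.240 CPM, with no overlap. The log2 fold change was -1.38 (SE 0.311) with an adjusted p of 0.0438 by edgeR, and the call was made in 2 of 9 fits that left out 1 mouse.

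Loxl4 was called lower in beef alone, and this call rested on the group of mouse 31. Its CPM was 8.49, 7.12, 3.57 and 1.82 in the beef group, all below the lowest chow-fed mouse at 12.5. Loxl4 thus had a log2 fold change of -2.08 (SE 0.429, 4.23-fold lower) with an adjusted p of 0.0306 by edgeR, and the call was made in 3 of 9 fits that left out 1 mouse. Mouse 31 stood at 25.8 CPM, within the range of chow, and counted as beef it brought the log2 fold change to -1.24 and the adjusted p to 0.264. In the fishmeal group the values were 17.1, 13.4, 3.12, 20.5 and 2.47 CPM, with a log2 fold change of -0.97 (95% interval -2.08 to 0.13). In the salmon filet group they ran from 2.66 to 29.3 CPM with a median of 12.1, and the log2 fold change was -0.56 (-1.59 to 0.46). Each HFD group thus held mice with a low Loxl4, and in fishmeal and salmon filet also mice at the level of chow.

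Other members did not pass the test by edgeR in single groups. Fn1 had log2 fold changes of 0.36 (95% interval 0.02 to 0.71) in fishmeal, 0.41 (0.04 to 0.77) in salmon filet and 0.50 (0.15 to 0.84) in beef. Mmp9 had -0.94, -0.80 and -1.16 in the same order, with adjusted p of 0.130, 0.172 and 0.0870. Col12a1 had 0.71 in fishmeal, with an adjusted p of 0.0603 by edgeR, 0.39 in salmon filet and 0.31 in beef. Mmp12 had 1.54 in fishmeal, 1.02 in salmon filet and 1.41 in beef, and Mmp19 0.41, 0.18 and 0.19. In the edgeR fit of all 4 groups, Col12a1 and Mmp19 passed in fishmeal, with adjusted p of 0.0177 and 0.0487.

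Col1a1 overlapped with chow in each group. Its CPM was 14.4, 6.09, 3.91, 2.57 and 7.14 with fishmeal, and the log2 fold change was 0.41 (95% interval -0.61 to 1.43), or -0.036 without fishmeal mouse 12. With salmon filet it ranged from 3.89 to 8.66 with a median of 7.43, and the log2 fold change was 0.44 (-0.32 to 1.19). With beef it was 7.52, 11.8, 4.85 and 4.56, and the log2 fold change was 0.49 (-0.45 to 1.43). Fishmeal mouse 12 and beef mouse 35 were the highest of their groups. Col3a1 had 0.46, 0.31 and 0.13 in the same order, and Acta2 0.35, 0.20 and 0.14. For Acta2 in fishmeal the estimate fell to -0.02 without fishmeal mouse 12, which at 4.69 CPM had the highest value of all mice. For Col13a1, a transmembrane collagen, beef mouse 35 stood at 5.54 CPM, above the 2.17 to 3.46 CPM of the other 3 beef-fed mice.

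The median log2 fold change of tested members was 0.10 in fishmeal, 0.18 in salmon filet and 0.08 in beef. For the fibrillar collagens it was 0.16, 0.29 and 0.14, for secreted metalloproteinases 0.39, 0.35 and 0.21, and for lysyl oxidases -0.24, -0.18 and -0.15.

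Between the protein sources, the question was whether the matrix genes differ with the protein of the HFD. In fishmeal versus salmon filet, edgeR's quasi-likelihood test called 0 of 62 members, against 0.157% of all genes, with 3 at an unadjusted p under 0.05, against 4.24%. DESeq2 called 0 of 70, against 0.364% of all genes, and limma 0 of 43, against 0.253%. In fishmeal versus beef, edgeR called 0 of 62, against 0.00607% of all genes, with 1 at an unadjusted p under 0.05, against 2.33%. DESeq2 called 0 of 69, against 0.135%, and limma 0 of 43, against 0%. In salmon filet versus beef, edgeR called 0 of 63, against 0% of all genes. There 9 members (14.3%) had an unadjusted p under 0.05, 8 of them higher in salmon filet, against 3.71% of all genes. DESeq2 called 0 of 70, against 0.00347%, and limma 0 of 42, against 0%. Few genes of any kind were called in these comparisons. The median log2 fold change of tested members was -0.11 in fishmeal versus salmon filet, 0.006 in fishmeal versus beef and 0.16 in salmon filet versus beef. Above 0 were 18 of 62, 32 of 62 and 45 of 63 members in the same order, against 53.0%, 49.3% and 50.7% of all genes. Members followed each other from mouse to mouse, so these counts are not of independent genes.

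The members with the smallest unadjusted p are given as values that did not pass the test. Mmp28, a metalloproteinase of epithelia, stood at 0.202, 0.309, 0.265, 0.262 and 0.382 CPM in fishmeal and 0.105 to 0.197 CPM in salmon filet. The groups did not overlap, and the log2 fold change was 0.92 (95% interval 0.35 to 1.48). These are few reads, with 12 to 23 raw counts per library in fishmeal and 6 to 11 in salmon filet, so the groups nearly touched. In the same comparison Col4a5 had -0.50 and Col4a6, its head-to-head neighbour, -0.94. Between fishmeal and beef, Col12a1 had 0.39 (0.01 to 0.78), Mmp11 0.50 and Loxl4 1.11 (-0.25 to 2.47). With mouse 31 as beef, the value of Loxl4 was 0.27. Between salmon filet and beef, Col4a5 had 0.59 (0.16 to 1.01), Col6a5, a type VI chain of low level, 1.62, and Col8a2 was 2.17-fold higher in salmon filet. Raw counts of Col6a5 were 8 to 41 in salmon filet and 2 to 14 in beef, and those of Col8a2 18 to 44 and 6 to 22. All of these differences had an adjusted p of at least 0.566 by edgeR.

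For the collagens of scar tissue, the intervals show what these groups could tell. Col1a1 had a log2 fold change of 0.00 (95% interval -0.77 to 0.77) in fishmeal versus salmon filet, -0.08 (-1.05 to 0.88) in fishmeal versus beef and -0.07 (-0.70 to 0.57) in salmon filet versus beef. A difference in Col1a1 of up to about 1 on the log2 scale in either direction was thus not distinguishable. Col4a1 was measured more closely, with 0.16 (-0.17 to 0.48), -0.01 (-0.48 to 0.47) and -0.15 (-0.48 to 0.18) in the same order. In the comparisons with beef both genes' estimates rest in part on beef mouse 35: without it Col4a1 had 0.22 in fishmeal versus beef and 0.06 in salmon filet versus beef, and Col1a1 0.27 in salmon filet versus beef.

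Mice of 1 group differed from each other across many members at once. Over the 63 members tested in HFD versus chow, the median deviation from the group mean on the log2 scale was 0.47 in chow mouse 2, 0.30 in fishmeal mouse 12 and 0.23 in beef mouse 35, and -0.46 in fishmeal mouse 16 and -0.33 in chow mouse 1. Its SD over the 20 mice was 0.244, and the median log2 fold change of members was 0.19 in HFD versus chow. That SD describes single mice and is not the error of a difference between group means. The deviation reached 0.72 in chow mouse 2 and -0.55 in chow mouse 1 for the fibrillar collagens, and 0.69 and -0.87 for microfibrillar and anchoring collagens. For single members the SD within groups on the log2 scale ran from 0.19 for Mmp19, 0.22 for Col14a1 and 0.23 for Dcn and Sparc to 0.76 for Col1a1, 0.90 for Timp1 and 0.93 for Mmp12, with Loxl4 above them as the most variable of the 63.

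**Figure D4:**
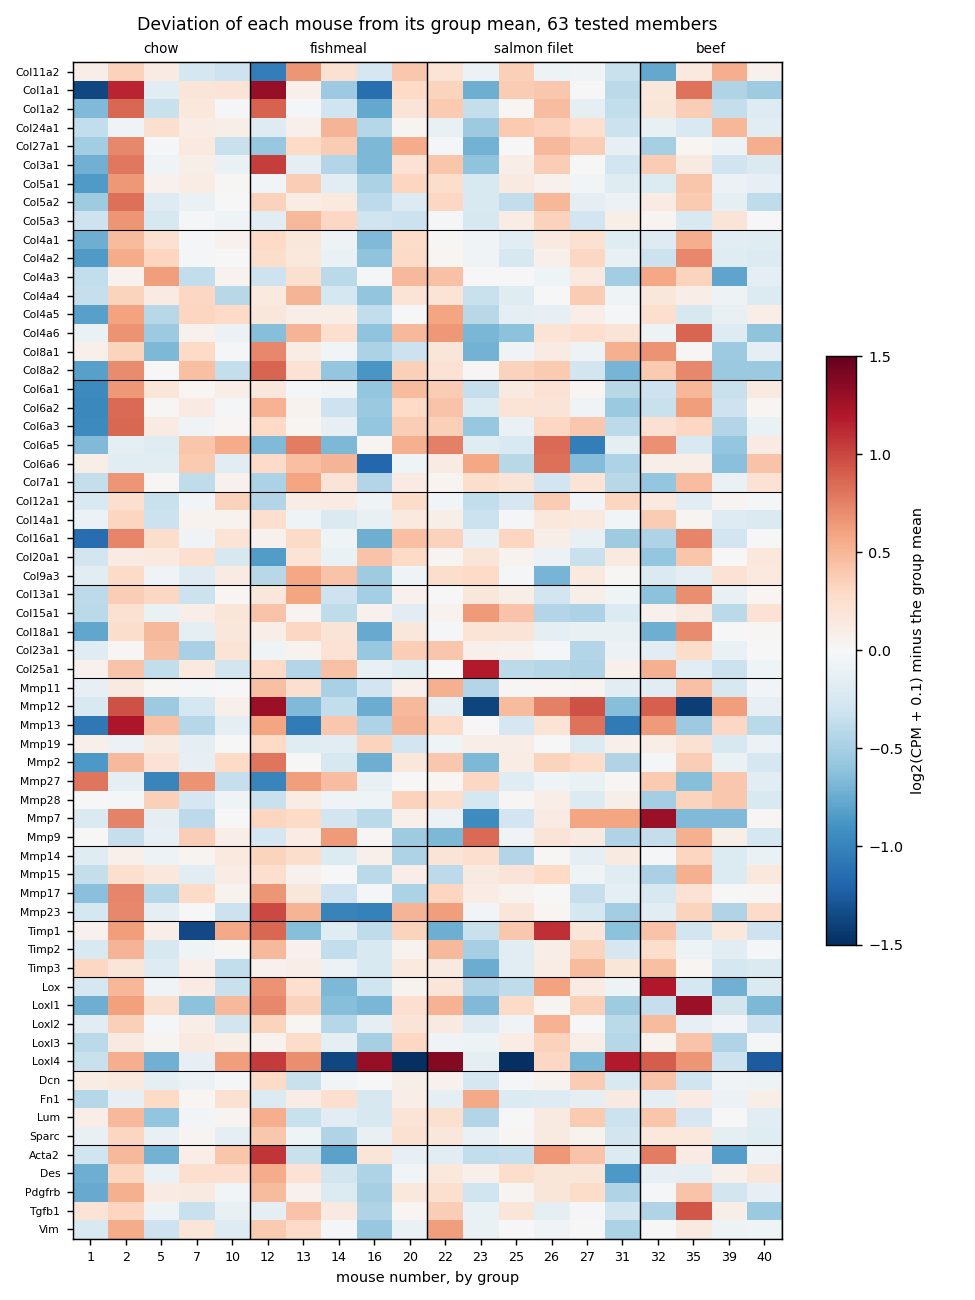
Deviation of each mouse from its group mean in log2(CPM + 0.1) for the 63 tested members, with mice in columns by group and members in rows by class; red is above and blue below the group mean, with colours saturating at 1.5. Chow mouse 2 is mostly red and chow mouse 1 and fishmeal mouse 16 mostly blue across the collagen classes.

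Pairs of members followed each other from mouse to mouse. For 9 pairs, log2 CPM centred on the group means was compared over the 20 mice, with 100000 permutations within groups and Benjamini-Hochberg adjustment over the 9 pairs. Col1a1 and Col1a2 had a Pearson r of 0.95 and a Spearman rho of 0.93, with a permutation p of 1e-05 for each, the smallest that these permutations can give (adjusted 2.25e-05 for r and 3e-05 for rho). Without chow mouse 1 and fishmeal mouse 16, the pair of mice farthest from the median, r was 0.93. The head-to-head pair Col4a1 and Col4a2 had r = 0.99 and rho = 0.97 (permutation p = 1e-05 each, adjusted 2.25e-05 and 3e-05), and r = 0.98 without the same pair of mice. Col6a1 and Col6a2 had r = 0.94 and rho = 0.91 (permutation p = 1e-05 each, adjusted 2.25e-05 and 3e-05), and r = 0.90 without them. Col5a1 and Col5a2 were less close, with r = 0.66 (permutation p = 0.0118, adjusted 0.0152) and rho = 0.49 (permutation p = 0.0462, adjusted 0.0485, which lies so near the threshold of 0.05 that another draw of permutations could put it on the other side). This relation rested on chow mice 1 and 2, since without them r was 0.43 with an adjusted permutation p of 0.134.

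Col1a1 was also set against genes of the same process. With Col3a1 it had r = 0.93 (permutation p = 1e-05, adjusted 2.25e-05) and rho = 0.92 (permutation p = 2e-05, adjusted 4.5e-05), and r = 0.91 without chow mouse 1 and fishmeal mouse 16. With the crosslinking enzyme Loxl1 it had r = 0.81 (permutation p = 2e-05, adjusted 3.6e-05) and rho = 0.85 (permutation p = 6e-05, adjusted 0.000108), and r = 0.78 without those mice. With Acta2 it had r = 0.56 (permutation p = 0.0273, adjusted 0.0307) and rho = 0.54 (permutation p = 0.0264, adjusted 0.034), r = 0.71 without those mice, and r = 0.41 without fishmeal mouse 12, with an adjusted permutation p of 0.137. With Des it had r = 0.68 (permutation p = 0.00301, adjusted 0.00451) and rho = 0.64 (permutation p = 0.00585, adjusted 0.00877). This rested on the farthest pair of mice, since r was 0.46 without them with an adjusted permutation p of 0.0901. Within single groups, r of Col1a1 with Des was 0.93 in chow, 0.95 in fishmeal and 0.51 in salmon filet, but -0.90 in beef. With Timp1, Col1a1 had r = 0.31 (permutation p = 0.267, adjusted 0.267) and rho = 0.48 (permutation p = 0.0485, adjusted 0.0485, as near the threshold), and r = 0.39 without the farthest pair of mice. With the GC trend of each library removed, a check chosen after the data were seen, r ranged from 0.32 for Col1a1 with Timp1 to 0.96 for Col1a1 with Col3a1 and for Col4a1 with Col4a2.

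**Figure D5:**
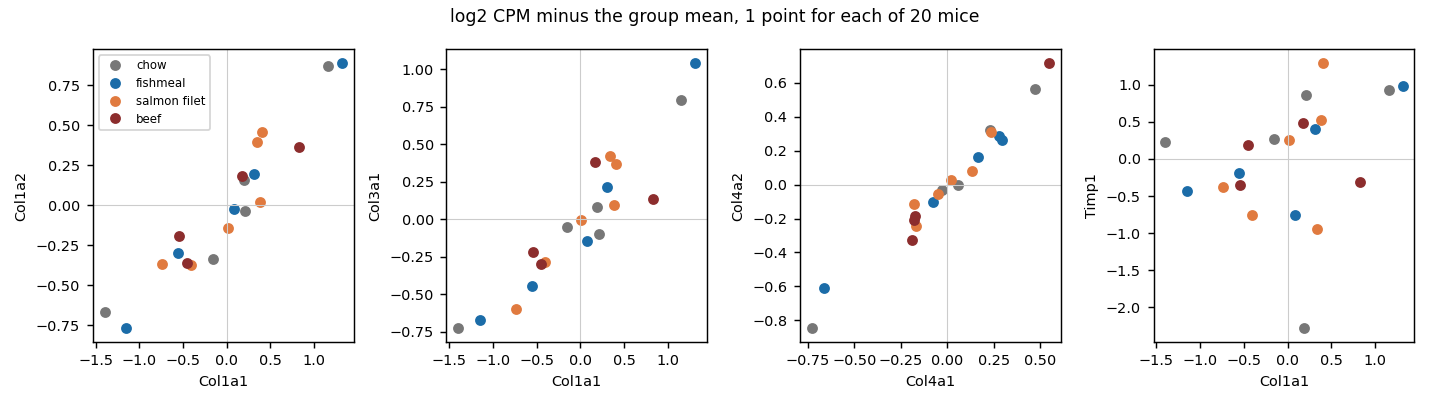
log2 CPM minus the group mean for Col1a1 with Col1a2, Col3a1 and Timp1 and for Col4a1 with Col4a2, 1 point for each of 20 mice coloured by group. Points of the 3 collagen pairs lie along a line over the 20 mice (r = 0.95, 0.93 and 0.99), with Col1a1 and Col3a1 less close in beef (r = 0.71). Those of Col1a1 with Timp1 scatter (r = 0.31).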

How the data were processed

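Liver RNA of 20 mice was sequenced with a strand-specific mRNA protocol as paired-end reads. The authors trimmed reads with BBDuk, mapped them with HISAT2 1.2.1 and counted them per gene with featureCounts 1.4.6-p1. Whether counting used strand is not given in the sources used here, and the genome is printed as GRCh38 although the mice are Mus musculus. Coordinates are from GENCODE and RefSeq on GRCm38. The deposited counts are not normalised, and the second deposited table holds TPM. Members were found by symbol, and whether any row lacked a symbol was not counted.

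Counts were tested in R 4.3 with edgeR 4.0 (TMM, filterByExpr at a minimum count of 10, two-sided quasi-likelihood F-tests, p-values adjusted by Benjamini-Hochberg over every gene tested, and called when the adjusted p was under 0.05), on the mice of the groups compared as labelled. Log values used a prior count of 2. CPM uses TMM factors over all libraries. Replicates are separate mice. Depth was 42526234 to 70266136 counts per library, and the number of mice limits precision.

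Members and lists were chosen with earlier results of these data known. Named are members called, the 3 with the smallest unadjusted p where none was called, 35 members fixed by name, and in each other list the called gene with the largest change in each direction. Members given with values outside this rule, such as Col12a1, Col23a1 and Col13a1, were picked after their values were seen. Of the genes listed beside the members, 2 are not reported here and enter no list count or sum.

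Alternatives were DESeq2 1.42, limma 3.58 on log2(TPM + 1) for genes with a mean of at least 0.5 TPM, other normalizations and filters, all 4 groups in 1 fit, mouse 31 as beef and each mouse left out. Offsets for GC content and GC-removed correlations were added after the data were seen. The tests were checked on simulated data.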

Additional observations from a re-analysis of the deposited data

Results flagged for a closer look

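In 11 of 180 sets of a named member and a group of 4 to 6 mice, 1 mouse lay apart from the rest of its group by Dixon's 95% critical value, which chance gives in about 1 in 20 sets. Beef mouse 35 was the mouse in 4 of them. It had 57.3 CPM of Col4a1 (34.3 to 34.7 in the other beef-fed mice), 44.4 CPM of Col4a2 (21.5 to 23.7), 16.9 CPM of Col5a1 (at most 12.0) and 2.81 CPM of Loxl1 (0.641 to 0.882). Col4a1 and Col4a2 lie head to head and do not count as independent. This library also had 84.3% of its counts on protein-coding genes and the steepest positive GC slope, and the part of these in the values was not tested.

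Beef mouse 32 had 0.542 CPM of Lox, against 0.0696 to 0.140 in the other 3. Chow mouse 2 had 7.04 CPM of Col5a2 (2.67 to 3.92 in the others) and 21.2 CPM of Timp2 (12.7 to 15.1). Fishmeal mouse 16 had 597 CPM of Col18a1, against 1080 to 1248 in the others. In the salmon filet group, mouse 23 had 0.825 CPM of Col25a1 (0.195 to 0.326 in the others), mouse 22 had 18.9 CPM of Vim (8.78 to 12.3), and mouse 31, the mouse that the count table's header names beef, had 1.81 CPM of Des (3.58 to 4.07).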

How the results depend on the processing

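The counts of members called moved with the settings. In HFD versus chow (3 called), 1 was called among genes with at least 10 counts in every library, 5 in the fit of all 4 groups, 7 by DESeq2, 7 with GC offsets, 0 by limma, whose filter leaves out Col25a1 and Mmp9, and 1 to 5 with 1 mouse left out (1 without chow mouse 1 or 7, 5 without salmon filet mouse 23). In fishmeal versus chow (1) the numbers were 0, 3, 3, 2, 0 and 1 to 2 in the same order. In salmon filet versus chow (0), 1 was called with GC offsets (Col13a1) and 0 to 1 with 1 mouse left out (Col5a3 without chow mouse 2, Col25a1 without salmon filet mouse 23). In beef versus chow (2) they were 1, 0, 4, 5, 1 and 0 to 4, with 0 without chow mouse 2, 7 or 10 or beef mouse 39 or 40. Other normalizations changed no count, and between protein sources every setting gave 0. The counts of all genes called moved as well. In HFD versus chow, edgeR called 1669 of 17120 genes, DESeq2 2191 of 18787, GC offsets 2352 of 17093 and limma 1220 of 15088. Fishmeal versus chow gave 556 of 16471, 1200 of 18898, 898 of 16449 and 367 of 15090 in the same order. Beef versus chow gave 411 of 16559, 1092 of 16473, 979 of 16536 and 276 of 15116. Salmon filet versus chow gave 1160 of 16583 with GC offsets. Counts over all genes for the other settings are not given here.

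Estimates near 0 often changed sign. Over all comparisons, 92 estimates of named members, 1 per member and comparison, did so under at least 1 setting, with 249 sign changes in all, 187 with 1 mouse left out and 62 under other settings. None was called in either fit. In 20 of the 249 the estimate moved by more than its SE, 18 of them with 1 mouse left out, which was beef mouse 35 or fishmeal mouse 12 in 17 of them and chow mouse 2 in the other one (Vim in HFD versus chow). The cause was not tested. With 1 mouse left out, the following log2 fold changes had ranges that crossed 0. In HFD versus chow the ranges were those of Col6a2 (-0.038 to 0.41), Des (-0.093 to 0.14), Sparc (-0.069 to 0.058), Timp2 (-0.071 to 0.14), Vim (-0.12 to 0.12) and Tgfb1 (-0.055 to 0.15). In fishmeal versus chow the ranges were those of Col6a2 (-0.093 to 0.35), Col6a3 (-0.067 to 0.38), Des (-0.12 to 0.15), Pdgfrb (-0.028 to 0.27), Sparc (-0.091 to 0.099), Tgfb1 (-0.13 to 0.10), Timp2 (-0.27 to 0.0052) and Vim (-0.18 to 0.082). Also crossing 0 there were Acta2 (-0.017 to 0.52) and Col1a1 (-0.036 to 0.80). In salmon filet versus chow the ranges were those of Col4a1 (-0.056 to 0.22), Des (-0.015 to 0.27), Lox (-0.35 to 0.026), Sparc (-0.077 to 0.052), Tgfb1 (-0.16 to 0.021), Lum (-0.12 to 0.14), Vim (-0.075 to 0.25) and Mmp14 (-0.10 to 0.024). In beef versus chow the ranges were those of Col3a1 (-0.025 to 0.38), Col5a2 (-0.069 to 0.36), Col6a1 (-0.19 to 0.19), Col6a3 (-0.075 to 0.38), Mmp2 (-0.0044 to 0.30), Pdgfrb (-0.068 to 0.25), Col6a2 (-0.31 to 0.21) and Des (-0.21 to 0.032). Also crossing 0 there were Loxl2 (-0.27 to 0.033), Sparc (-0.12 to 0.023), Acta2 (-0.19 to 0.35), Col14a1 (-0.043 to 0.19), Loxl1 (-0.15 to 0.78) and Tgfb1 (-0.11 to 0.47). In fishmeal versus salmon filet the ranges were those of Acta2 (-0.22 to 0.34), Col3a1 (-0.19 to 0.32), Fn1 (-0.094 to 0.11), Sparc (-0.059 to 0.16), Timp3 (-0.11 to 0.12), Col1a1 (-0.48 to 0.21), Dcn (-0.14 to 0.035) and Mmp13 (-0.36 to 0.12). Also crossing 0 there were Tgfb1 (-0.065 to 0.18), Col1a2 (-0.38 to 0.072), Lox (-0.34 to 0.10), Loxl1 (-0.35 to 0.034), Loxl2 (-0.11 to 0.098), Col18a1 (-0.10 to 0.13), Col5a2 (-0.19 to 0.016), Des (-0.26 to 0.019) and Mmp9 (-0.40 to 0.17). In fishmeal versus beef the ranges were those of Acta2 (-0.16 to 0.54), Col1a2 (-0.21 to 0.22), Col3a1 (-0.0093 to 0.48), Col5a2 (-0.031 to 0.24), Col6a2 (-0.0030 to 0.40), Des (-0.075 to 0.19), Mmp12 (-0.37 to 0.48) and Mmp2 (-0.083 to 0.31). Also crossing 0 there were Pdgfrb (-0.11 to 0.19), Sparc (-0.029 to 0.17), Timp2 (-0.11 to 0.12), Col1a1 (-0.54 to 0.27), Col4a1 (-0.074 to 0.22), Col6a3 (-0.13 to 0.11), Loxl1 (-0.23 to 0.72) and Mmp9 (-0.058 to 0.53). Also crossing 0 there were Col4a2 (-0.22 to 0.21), Col5a1 (-0.15 to 0.11), Loxl2 (-0.24 to 0.057), Timp1 (-0.55 to 0.0071), Col18a1 (-0.45 to 0.034), Mmp15 (-0.28 to 0.075) and Tgfb1 (-0.49 to 0.11). In salmon filet versus beef the ranges were those of Col14a1 (-0.056 to 0.15), Sparc (-0.030 to 0.079), Col1a1 (-0.23 to 0.27), Acta2 (-0.16 to 0.38), Mmp19 (-0.080 to 0.058), Timp3 (-0.012 to 0.25), Loxl1 (-0.091 to 0.83) and Loxl2 (-0.23 to 0.075). Also crossing 0 there were Col18a1 (-0.43 to 0.044), Col4a1 (-0.22 to 0.060), Col4a2 (-0.39 to 0.021) and Tgfb1 (-0.55 to 0.032).

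With GC offsets the estimates became -0.0080 for Des in HFD versus chow, and -0.00076 for Des and -0.0035 for Sparc in fishmeal versus chow, and -0.0061 for Col4a1 and -0.049 for Mmp15 in salmon filet versus chow, and -0.064 for Col6a1 in beef versus chow, and 0.045 for Col18a1, 0.012 for Col1a1, 0.0069 for Fn1, 0.0018 for Loxl2 and -0.0062 for Timp3 in fishmeal versus salmon filet, and 0.051 for Col4a1, 0.00040 for Col5a1, 0.0086 for Col6a3 and 0.14 for Loxl1 in fishmeal versus beef. With limma the estimates became -0.015 for Tgfb1 in HFD versus chow, and -0.022 for Des and -0.067 for Sparc in fishmeal versus chow, and -0.00064 for Acta2, -0.0035 for Col14a1 and -0.053 for Col6a1 in beef versus chow, and -0.018 for Sparc and -0.0097 for Timp3 in fishmeal versus salmon filet, and 0.038 for Col4a1, 0.027 for Col6a3 and 0.064 for Loxl1 in fishmeal versus beef, and 0.049 for Col1a1 and 0.083 for Mmp19 in salmon filet versus beef. With mouse 31 as beef the estimates became 0.013 for Sparc in salmon filet versus chow, and -0.015 for Col6a1 in beef versus chow, and -0.011 for Sparc in fishmeal versus salmon filet, and 0.013 for Col1a1, 0.058 for Col4a1, 0.037 for Col6a3, 0.091 for Loxl1 and 0.037 for Timp1 in fishmeal versus beef, and 0.11 for Col1a1, 0.066 for Loxl2 and 0.12 for Mmp13 in salmon filet versus beef. With upper quartile scaling the estimates became -0.0042 for Sparc in fishmeal versus chow, and -0.0081 for Lum in salmon filet versus chow, and -0.0081 for Col6a1 in beef versus chow, and -0.00051 for Timp3 in fishmeal versus salmon filet, and 0.0062 for Col4a1 and 0.0043 for Loxl1 in fishmeal versus beef. With DESeq2 size factors the estimates became 0.0046 for Tgfb1 in fishmeal versus chow, and 0.0053 for Col4a1, 0.0021 for Col6a3 and 0.0058 for Loxl1 in fishmeal versus beef. With a minimum of 1 count the estimates became 0.012 for Tgfb1 in fishmeal versus chow, and -0.0037 for Timp3 in fishmeal versus salmon filet, and 0.0054 for Col4a1 and 0.010 for Loxl1 in fishmeal versus beef. With DESeq2 the estimates became 0.010 for Tgfb1 in fishmeal versus chow, and 0.011 for Col4a1, 0.0082 for Col6a3 and 0.011 for Loxl1 in fishmeal versus beef. With all 4 groups in 1 fit the estimates became 0.00078 for Tgfb1 in fishmeal versus chow, and -0.0021 for Lum in salmon filet versus chow, and 0.0014 for Col1a1 in fishmeal versus salmon filet, and 0.00088 for Loxl1 in fishmeal versus beef. With a minimum of 10 counts in every library the estimates became -0.0011 for Col6a1 in beef versus chow.

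Of the 9 correlations, r fell to 0.43 for Col5a1 with Col5a2 and to 0.46 for Col1a1 with Des without the farthest pair of mice. With 1 mouse left out it ranged from 0.41 to 0.66 for Col1a1 with Acta2 and from 0.19 to 0.51 for Col1a1 with Timp1. No paired analysis was possible because mouse numbers are not shared between groups. The groups held 4 to 6 mice, and Col25a1, Mmp9, Mmp12, Timp1, Mmp28, Col6a5 and Col8a2 had low counts.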

Other observations

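The 5 mice with the lowest Loxl4 were also the 5 with the lowest Mmp14. Beef mice 40 and 39, fishmeal mice 20 and 14 and salmon filet mouse 25 had 1.82 to 3.57 CPM of Loxl4, with 6.99 CPM in the next mouse, and 35.9 to 42.7 CPM of Mmp14, with 43.3 CPM in the next. This was noticed after the values were seen and was not tested.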
